A study of Mus musculus with 6 samples.

Results

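The genes described here encode the machinery of fatty acid oxidation: 32 genes picked by symbol from a fixed list, out of 46078 gene rows in the count table. By role, 19 encode mitochondrial proteins, 5 encode peroxisomal proteins, 4 are long-chain acyl-CoA synthetases that activate fatty acids, and 4 are regulators of the pathway. All 32 symbols were in the table, and 31 passed the filter on low counts. The gene that did not is Ppara, the nuclear receptor that drives fatty acid oxidation in liver.

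The RNA came from sorted alveolar macrophages, the resident phagocytes of the lung's air spaces, of untreated mice, with 1 library of polyadenylated RNA per mouse. The 3 control mice (Car4fl/fl, labelled genotype Car4flox/flox) carry floxed alleles of Car4, the gene of a membrane-anchored carbonic anhydrase. The 3 Cre mice (Car4fl/fl-CD11cCre, labelled genotype Car4flox/flox- CD11c Cre+) carry the same floxed alleles and a Cre recombinase under CD11c, a gene that alveolar macrophages and dendritic cells express. No group had Cre with an unfloxed Car4 gene, so an effect of Cre itself and of the loss of Car4 cannot be told apart. The sources used here do not state the age or sex of the mice or which exons are floxed.

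Long-chain fatty acids are first coupled to coenzyme A, then carried into mitochondria as carnitine esters, and shortened in repeated rounds of dehydrogenation, hydration, a second dehydrogenation and thiolytic cleavage. Very long and branched chains are shortened in peroxisomes by a parallel set of enzymes. Nuclear receptors of the PPAR family switch many of these genes on together, and alveolar macrophages, which take up and break down surfactant lipid, depend on one of them, PPARγ.

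Libraries held 53824475 to 65443314 counts. Values are CPM, counts per 1000000 counts of the library, on library sizes scaled by the trimmed mean of M-values (TMM), and per-library values are in the order of replicates 1, 2 and 3. Car4 itself was at 499, 385 and 270.4 CPM in the control libraries and 40.2, 46.9 and 36.3 CPM in the Cre libraries, a log2 fold change of -3.23 ± 0.22 (SE) (edgeR adjusted p = 0.0047, or 0.0549 without control library 2). On the first principal component over all tested genes (47.0% of the variance) the controls lay between -29.7 and -22.5, Cre libraries 2 and 3 at 39.8 and 39.4, and Cre library 1 between them at 0.444. Of 10 lists of cell type markers, the summed level of 12 interstitial macrophage markers was 2587 to 2616 CPM in the controls and 2794 to 3227 CPM in the Cre libraries, with 8 fitted values above control. Without Mrc1, its most abundant gene, that list summed to 112 to 126 against 123.1 to 598 CPM, with Cre library 1 inside the control range. The 12 alveolar macrophage markers, 6 of them above control, summed to 22306 to 25846 against 27587 to 41246 CPM, but to 7883 to 8582 against 8285 to 8660 CPM without Chil3. The 7 airway epithelium markers, 3 of them above control, summed to 60.0 to 165 against 23.1 to 41.6 CPM, and to 4.91 to 9.48 against 6.17 to 12.7 CPM without Epcam. The 8 neutrophil markers summed to 76.4 to 88.2 against 87.4 to 101 CPM, with all 6 tested ones above control. Without Csf3r they summed to 31.8 to 49.0 against 44.2 to 48.6 CPM. Ly6g, which defines neutrophils, was the only marker at 0 in every library. In bulk RNA, fewer cells of a type and less RNA per cell cannot be told apart.

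Most fatty acid oxidation genes stood at similar levels in both genotypes. The widest differences were in Pdk4, a brake on glucose oxidation that was at 41.3 ± 4.53 CPM in controls and 26.2 ± 3.38 CPM in Cre mice (mean ± SD, n = 3 mice per group here and below), and the weakly expressed synthetase Acsl3, at 4.32 ± 0.149 CPM against 6.49 ± 1.20 CPM. No member passed an adjusted p of 0.05 in edgeR's quasi-likelihood test, in which 2 of 15147 tested genes did (0.0132%, split into 0.0066% higher and 0.0066% lower). With edgeR p under 0.05 before adjustment, 3 members were higher in the Cre mice (Crat, Acadl and Acsl3) and 2 lower (Abcd3 and Pdk4), 5 of 31, where 12.8% of all tested genes had such a p (6.54% higher, 6.28% lower). For the same 5 genes the 3 Cre values did not overlap the 3 control values, as for 17.9% of all genes (8.63% higher, 9.22% lower). Among tested genes at 20 CPM or more, 12.7% had an unadjusted p under 0.05 and 17.7% had no overlap. DESeq2 called Acsl3 higher and Pdk4 lower, beside 3.78% of the 14841 genes to which it gave an adjusted p (2.32% higher, 1.46% lower). Fitted values were above control for 14 members and below for 17, against 49.4% and 50.6% of all genes, with a median log2 fold change of -0.03 (all genes, -0.0019).

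**Figure D1:**
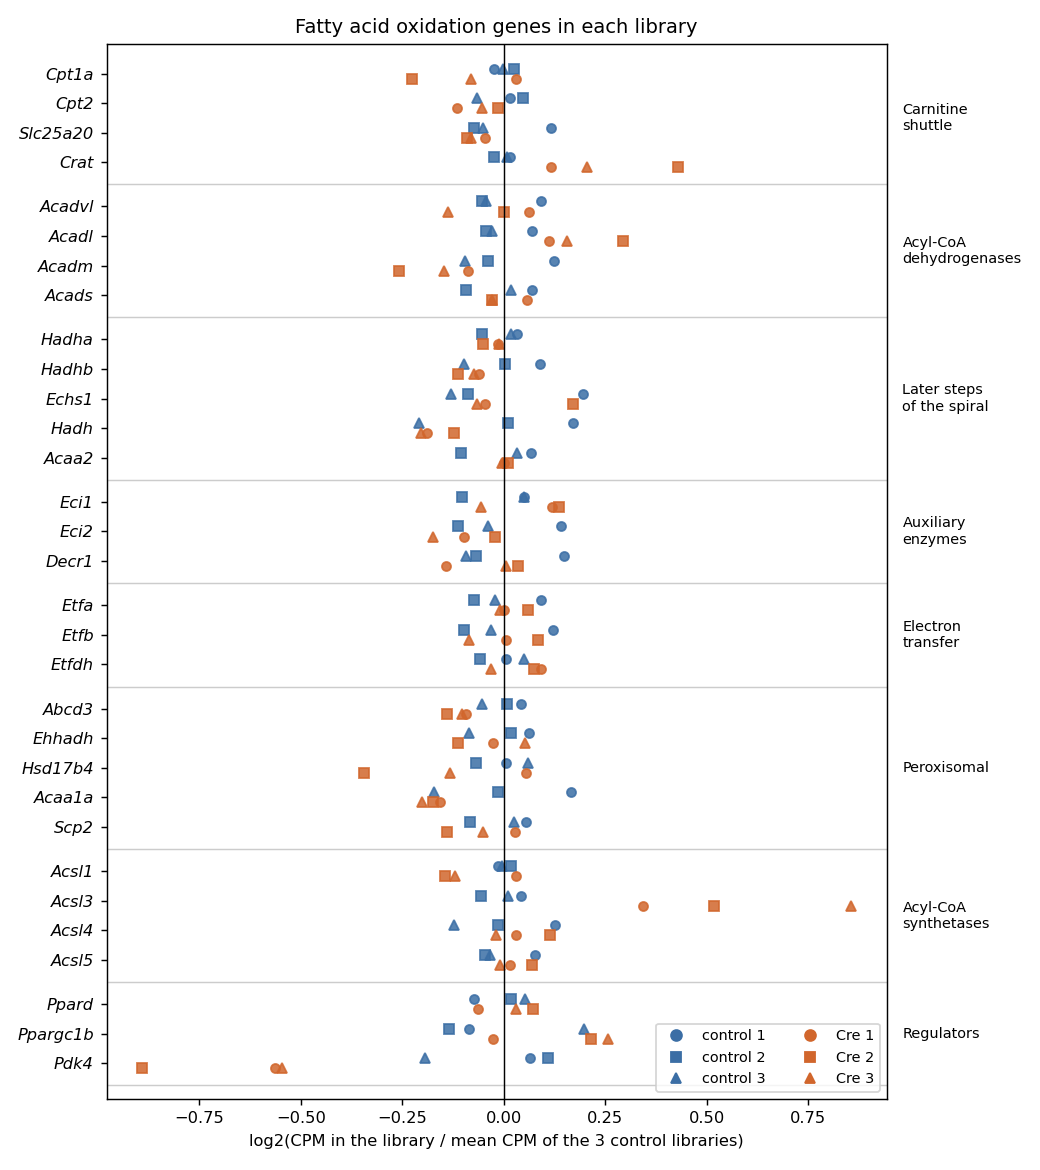
Each point is the log2 ratio of 1 library's CPM to the mean of the 3 controls for 1 gene (horizontal axis, log2 units), with genes in rows by role and the 3 control and 3 Cre libraries in different symbols. Most points crowd around 0, apart from those of Pdk4, whose Cre libraries all sit to the left of the controls, and Acsl3, whose Cre libraries all sit to the right.

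These measurements were fine enough to bound most differences. The 95% interval of the fold change lay inside 1.5-fold in either direction for 29 of 31 members, the exceptions being Acsl3 and Pdk4. Among all tested genes 62.5% had such an interval, and among the 6812 tested genes at 20 CPM or more, 95.5%. The median coefficient of variation of the members was 5.78% among controls and 5.74% among Cre mice, beside 5.30% and 4.91% for genes at 20 CPM or more. Member counts ran from 247 to 37614 per library. Intervals and p-values cover the spread between these 6 mice.

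**Figure D2:**
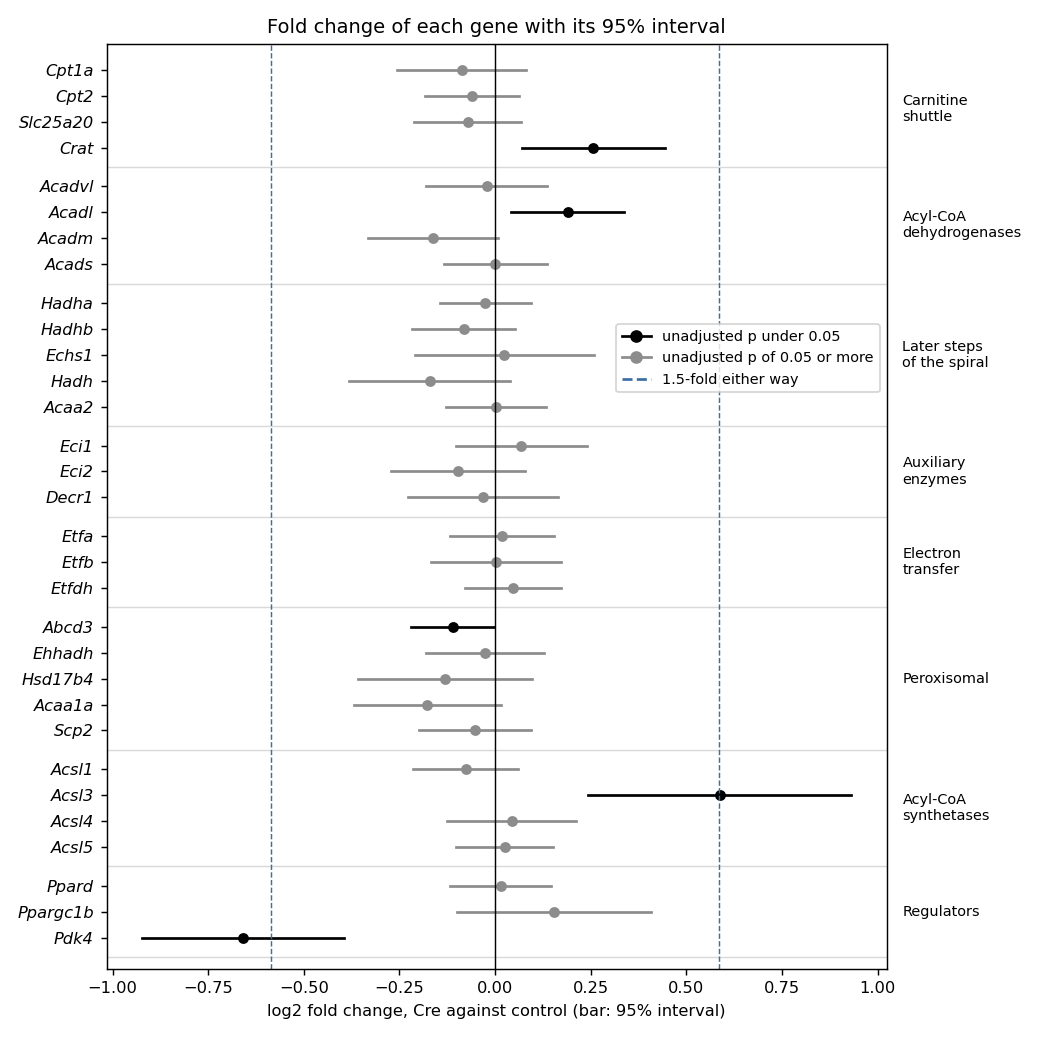
The log2 fold change of Cre against control is plotted for each of the 31 tested genes (point) with its 95% interval (bar), in black where the unadjusted p was under 0.05, and dashed lines mark 1.5-fold either way. Only the bars of Acsl3 and Pdk4 cross a dashed line, and the 5 peroxisomal points all lie left of 0.

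To compare levels between genes, CPM was divided by the gene's merged exon length in kilobases (CPM per kb). In control macrophages the highest member was Etfb, the small subunit of the electron transfer flavoprotein, at 150.4 ± 11.9 CPM per kb. Next came the peroxisomal multifunctional enzyme Hsd17b4 at 125 ± 5.59, then the carnitine acyltransferase Cpt1a at 80.4 ± 1.39 and the large flavoprotein subunit Etfa at 80.1 ± 4.72, the last 2 not differing beyond their spread. The lowest tested member was Acsl3, at 0.991 ± 0.0341 CPM per kb. With the length of the principal transcript in place of merged exons, an alternative chosen after seeing the data, the same 4 genes led and Acsl3 was still lowest. Middle ranks moved more: Echs1, whose merged exons are much longer than its principal transcript, went from rank 28 to rank 14.

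**Figure D3:**
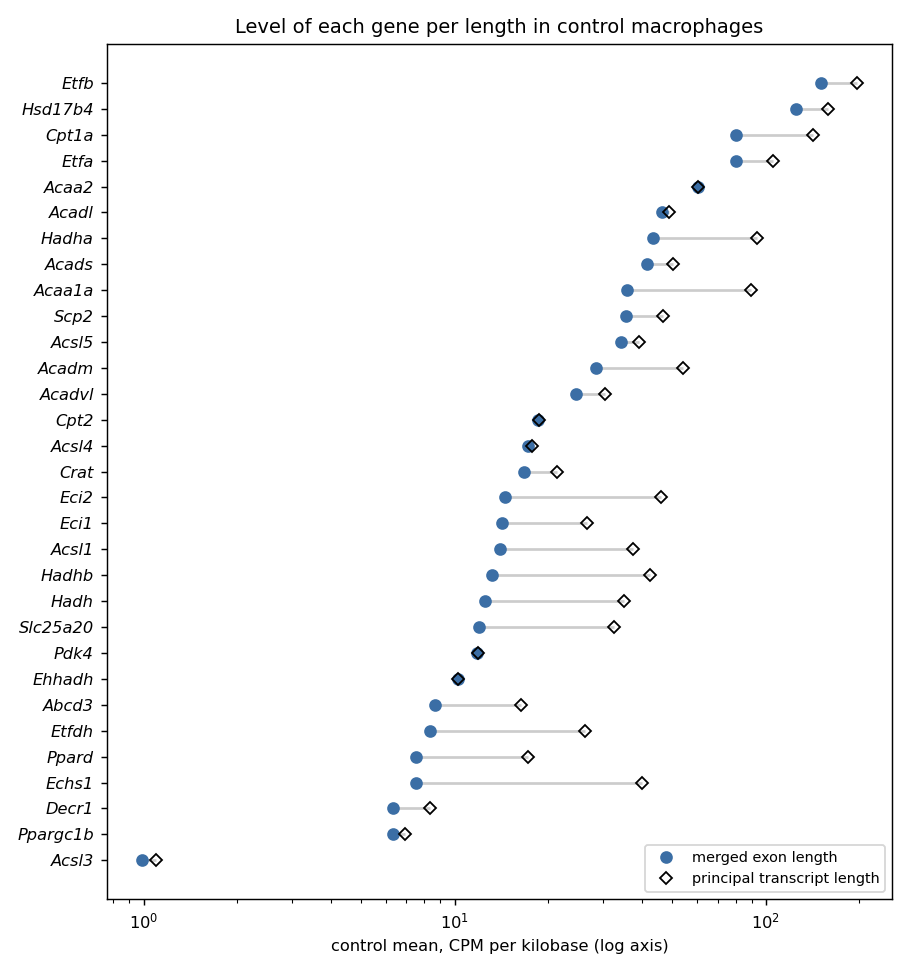
The control mean of each tested member per kilobase (CPM per kb, log axis) is shown with merged exon length (filled) and with principal transcript length (open), genes ordered by the first. Etfb, Hsd17b4, Cpt1a and Etfa lead and Acsl3 is lowest on both, while Echs1 moves most between them.

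The carnitine shuttle moves acyl groups into the mitochondrial matrix. Its gate, Cpt1a, makes acylcarnitine on the outer membrane and is the step that malonyl-CoA inhibits. Cpt1a was at 604, 625 and 614 CPM in the control libraries and 628, 526 and 581 CPM in the Cre libraries, and the groups overlapped, with Cre library 1 above every control and Cre library 2 the lowest (log2 fold change -0.09 ± 0.07 (SE), edgeR adjusted p = 0.694, 95% interval 0.838 to 1.06-fold). Cpt2, which rebuilds acyl-CoA on the inner side, was at 44.9, 45.9 and 42.4 CPM in the control libraries and 41.0, 44.0 and 42.8 CPM in the Cre libraries, also overlapping (log2 fold change -0.06). Slc25a20, the carnitine-acylcarnitine exchanger of the inner membrane, had a log2 fold change of -0.07.

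Crat was the shuttle gene whose groups did not overlap. Carnitine acetyltransferase, its product, moves short acyl groups such as acetyl between coenzyme A and carnitine, and so buffers acetyl-CoA rather than importing long chains. The gene (ENSMUSG00000026853, chromosome 2, 30400471 to 30415813, minus strand, GRCm38) was at 91.2, 88.8 and 90.8 CPM in the control libraries and 97.8, 122 and 104 CPM in the Cre libraries. All 3 Cre values were above all 3 controls, and they were spread wider than the controls. The log2 fold change was 0.26 ± 0.08 (SE), with a 95% interval of 1.05 to 1.36-fold (edgeR unadjusted p = 0.013, adjusted p = 0.253, DESeq2 adjusted p = 0.0782). Crat shares 59 exon bases with Dolpp1, which lies on the other strand and had a log2 fold change of -0.01.

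The acyl-CoA dehydrogenases open each round and are sorted by chain length. Acadl, the long-chain enzyme (ENSMUSG00000026003, chromosome 1, 66830839 to 66863277, minus strand), was at 97.9, 90.5 and 91.4 CPM in the control libraries and 101, 114 and 104 CPM in the Cre libraries. Its Cre values were all above its controls, by a small margin in Cre library 1, with a log2 fold change of 0.19 ± 0.06 (SE) (95% interval 1.03 to 1.26-fold, edgeR unadjusted p = 0.0182, adjusted p = 0.279). Acads, the short-chain enzyme, was at 98.5, 88.1 and 95.1 CPM in the control libraries and 97.6, 92.1 and 92.1 CPM in the Cre libraries, with the groups interleaved and group means of 93.9 ± 5.33 CPM and 93.9 ± 3.20 CPM. Acadm, the medium-chain enzyme, had the opposite sign to Acadl (-0.16, unadjusted p = 0.0578, adjusted p = 0.409 in edgeR), and Acadvl, the very-long-chain enzyme, had -0.02. Acadvl shares 1151 exon bases with Dvl2 on the other strand, so part of its count could belong to Dvl2 if strand was not used.

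Hydration, the second dehydrogenation and cleavage of long chains are carried out by the mitochondrial trifunctional protein, built from the products of Hadha and Hadhb. Hadha, the hydratase and dehydrogenase subunit, was at 386, 364 and 383 CPM in the control libraries and 374, 365 and 374 CPM in the Cre libraries, overlapping (95% interval 0.905 to 1.07-fold). Hadhb, the thiolase subunit, was at 92.4, 87.1 and 81.2 CPM in the control libraries and 83.4, 80.4 and 82.6 CPM in the Cre libraries, with a log2 fold change of -0.08. The ratio of Hadha to Hadhb, in CPM not corrected for length, was 4.18, 4.18 and 4.71 in the controls and 4.49, 4.54 and 4.53 in the Cre libraries. The ratio thus lay within the control range in every Cre library.

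These genes stand head to head on chromosome 5, read outward from a common gap. Their RefSeq starts lie 273 bases apart, and the 85 bases of that gap that lie in no annotated exon (chr5:30155163-30155247, GRCm38, plus strand, sequence from RefSeq) are shown because they lie upstream of both subunits.
Hadha-Hadhb: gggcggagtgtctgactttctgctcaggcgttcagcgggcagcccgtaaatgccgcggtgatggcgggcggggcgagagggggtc
The stretch holds 9 CpG dinucleotides, 69.4% G and C, and no CCAAT box in either orientation.

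For shorter chains the same steps use separate enzymes. Acaa2, the mitochondrial thiolase, was at 95.8, 85.1 and 93.6 CPM in the control libraries and 91.6, 92.2 and 91.2 CPM in the Cre libraries, and the Cre values were all inside the control range. Echs1, the short-chain hydratase, had a log2 fold change of 0.02, and Hadh, the short-chain hydroxyacyl-CoA dehydrogenase, -0.17 (edgeR unadjusted p = 0.0968). In Hadh the control libraries themselves ranged from 54.1 to 70.4 CPM.

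Double bonds need auxiliary enzymes that shift or reduce them. Eci2, an enoyl-CoA isomerase, was at 88.9, 74.5 and 78.5 CPM in the control libraries and 75.4, 79.5 and 71.5 CPM in the Cre libraries, and Eci1, a second isomerase, at 31.3, 28.1 and 31.3 CPM in the control libraries and 32.8, 33.2 and 29.1 CPM in the Cre libraries. Both overlapped, with log2 fold changes of -0.10 and 0.07. Decr1, the dienoyl-CoA reductase, had -0.03.

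Electrons from the first dehydrogenation pass through the electron transfer flavoprotein to ubiquinone. Etfb was at 190.4, 163 and 171 CPM in the control libraries and 176, 186 and 165 CPM in the Cre libraries, and Etfa at 157, 139.6 and 145 CPM in the control libraries and 147, 153 and 146 CPM in the Cre libraries. In both, every Cre value lay inside the control range. Etfdh, the oxidoreductase that hands the electrons to ubiquinone, had a log2 fold change of 0.05. The 3 fitted values were between 0.00313 and 0.0465 on the log2 scale, with all intervals inside 0.891- to 1.13-fold.

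Across the 19 mitochondrial genes, 9 fitted values were above control and 10 below, around a log2 median of -0.02 with a range of -0.17 (Hadh) to 0.26 (Crat). The extremes of their 95% intervals were 0.768- and 1.36-fold, so for none of the 19 did the interval reach a 1.5-fold difference. A larger pattern lay among the controls. Control library 1 had the highest control value for 16 of the 19 mitochondrial genes (84.2%) and for 23 of 31 members (74.2%), where it did so for 36.7% of all tested genes. The median log2 ratio of the mitochondrial genes to the control mean was 0.09 in control library 1, -0.06 and -0.03 in control libraries 2 and 3, and 0.00, 0.00 and -0.06 in Cre libraries 1, 2 and 3. Without control library 1, 16 members rather than 14 had fitted values above control, and the median log2 fold change over members was 0.00473. The medians of the 3 Cre libraries lay within the range of the 3 control medians.

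The 5 peroxisomal genes all had fitted values below control, at a median of -0.11 (log2), a range of -0.18 to -0.03 and intervals from 0.774- to 1.09-fold. Ehhadh, the nearest to 0, was above control when Cre library 2 (0.0137) or control library 1 (0.00473) was left out. Only Abcd3 had non-overlapping groups. Abcd3 (PMP70; ENSMUSG00000028127, chromosome 3, 121758774 to 121815302, minus strand) is a transporter subunit of the peroxisomal membrane that brings in branched-chain and dicarboxylic acyl-CoAs. It was at 58.6, 57.3 and 54.9 CPM in the control libraries and 53.4, 51.7 and 53.0 CPM in the Cre libraries. Each Cre value was below each control, by 1.49 CPM at the nearest pair. The log2 fold change was -0.11 ± 0.05 (SE), with a 95% interval of 0.859 to 0.998-fold (edgeR unadjusted p = 0.046, adjusted p = 0.382, DESeq2 adjusted p = 0.571).

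Within the peroxisome, Hsd17b4 (D-bifunctional protein) hydrates and dehydrogenates very-long-chain and branched acyl-CoAs. It was at 426, 404 and 442 CPM in the control libraries and 441, 335 and 387 CPM in the Cre libraries, so Cre library 1 lay among the controls and Cre libraries 2 and 3 below them (log2 fold change -0.13 ± 0.10 (SE), edgeR adjusted p = 0.653). Acaa1a, a peroxisomal thiolase, was at 177, 156 and 140.0 CPM in the control libraries and 141, 139.6 and 137 CPM in the Cre libraries, overlapping through Cre library 1 and control library 3 (log2 fold change -0.18 ± 0.08 (SE), edgeR unadjusted p = 0.0657, adjusted p = 0.427). Its counts are uncertain on 2 grounds. Acaa1b is a near-identical copy, and the summed CPM of both was 308, 302 and 344 in the controls and 336, 269 and 316 in the Cre libraries. Acaa1a also shares 290 exon bases with Myd88 on the other strand, which was at 155, 145 and 145 CPM in the control libraries and 138, 122 and 124 CPM in the Cre libraries (log2 fold change -0.21, edgeR adjusted p = 0.24). Scp2, a thiolase and sterol carrier, and Ehhadh, the L-bifunctional protein, had log2 fold changes of -0.05 and -0.03.

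Wider lists gave context for the peroxisome. Of 28 further peroxisomal oxidation genes, 23 were tested, 8 above and 15 below control (median -0.01 on the log2 scale), and none had an unadjusted p under 0.05. Abcd2, a transporter of very-long-chain acyl-CoAs, was at 419, 387 and 403 CPM in the control libraries and 409.9, 438 and 418 CPM in the Cre libraries, with overlapping groups (log2 fold change 0.07). Of 16 tested peroxin genes, which build the organelle, 8 were above and 8 below. Of these, Pex2 and Pex5 had log2 fold changes of 0.03 and -0.05, and 1 had an unadjusted p under 0.05. This was Pex26, which anchors the import machinery's ATPases to the membrane, at 4.42, 3.42 and 4.80 CPM in the control libraries and 5.68, 6.18 and 7.06 CPM in the Cre libraries (log2 fold change 0.58 ± 0.16 (SE), edgeR adjusted p = 0.194, DESeq2 adjusted p = 0.0323).

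Long-chain acyl-CoA synthetases activate free fatty acids before any of these routes. The abundant members were nearly level between groups. Acsl5, found on mitochondria and endoplasmic reticulum, was at 176, 161 and 163 CPM in the control libraries and 168, 175 and 165 CPM in the Cre libraries. Acsl4, which prefers arachidonic acid, was at 102, 92.5 and 85.7 CPM in the control libraries and 95.2, 101 and 92.2 CPM in the Cre libraries, and Acsl1 had a log2 fold change of -0.08. Each of these 3 overlapped between groups, and their log2 fold changes lay between -0.08 and 0.04.

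Acsl3, whose product sits on the endoplasmic reticulum and nascent lipid droplets, was the synthetase whose groups did not overlap. The gene (ENSMUSG00000032883, chromosome 1, 78657825 to 78707743, plus strand) was at 4.45, 4.16 and 4.35 CPM in the control libraries and 5.48, 6.18 and 7.82 CPM in the Cre libraries, from 247 to 421 counts per library. All Cre values were above all controls, Cre library 1 least and Cre library 3 most, while the 3 controls were within 0.293 CPM of each other. The log2 fold change was 0.59 ± 0.15 (SE), with a 95% interval of 1.18 to 1.91-fold (edgeR unadjusted p = 0.00439, adjusted p = 0.184, DESeq2 adjusted p = 0.0223). Acsl3 shares 244 exon bases on the same strand with Utp14b, at 2.56, 3.09 and 3.22 CPM in the control libraries and 3.19, 3.21 and 4.10 CPM in the Cre libraries (log2 fold change 0.24 ± 0.17 (SE)). The summed interstitial and alveolar macrophage markers were also higher in the Cre libraries. Both sums overlapped between groups without the most abundant gene of each list, Mrc1 and Chil3. Their part in the Acsl3 difference was not tested. The bases just upstream of the Acsl3 start (chr1:78657575-78657824, GRCm38, plus strand, RefSeq) are shown to set their base content beside that of the Pdk4 stretch, and capitals mark a CCAAT box.
Acsl3: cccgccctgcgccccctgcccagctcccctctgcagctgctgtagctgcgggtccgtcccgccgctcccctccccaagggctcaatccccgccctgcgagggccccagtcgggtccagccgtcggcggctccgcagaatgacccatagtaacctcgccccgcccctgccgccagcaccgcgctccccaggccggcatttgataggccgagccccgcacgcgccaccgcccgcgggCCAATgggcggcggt
The stretch holds 28 CpG dinucleotides and 75.6% G and C.

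Of 12 other genes of fatty acid uptake and activation, 5 were tested. Acsf3, which activates malonate and methylmalonate in mitochondria, was at 22.2, 23.1 and 21.1 CPM in the control libraries and 18.1, 16.3 and 17.4 CPM in the Cre libraries, with all Cre values below all controls (log2 fold change -0.36 ± 0.07 (SE), edgeR unadjusted p = 0.000882, adjusted p = 0.146, DESeq2 adjusted p = 0.00487). Slc27a1, a fatty acid transport protein with synthetase activity, was at 63.7, 67.5 and 72.6 CPM in the control libraries and 72.0, 82.9 and 81.9 CPM in the Cre libraries (log2 fold change 0.22 ± 0.07 (SE), edgeR adjusted p = 0.286), with overlap at control library 3 and Cre library 1. Slc27a4 had a log2 fold change of 0.11. Slc27a6 did not pass the filter, and is named after its values were seen. It had 0, 1 and 1 counts in the controls and 7, 50 and 74 counts in the Cre libraries. Counts as low as those of the controls do not show that the gene is silent there.

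Among the regulators, the receptor Ppara had 0 counts in 5 libraries and 2 counts in Cre library 2. A count of 0 allows up to 3 counts, or 0.0498 to 0.0557 CPM in those 5 libraries, which covers counting error only. Ppard, a receptor of the same family found in most tissues, was at 53.7, 57.2 and 58.6 CPM in the control libraries and 54.1, 59.4 and 57.7 CPM in the Cre libraries, with the groups overlapping (log2 fold change 0.01 ± 0.06 (SE), 95% interval 0.922 to 1.11-fold). Pparg, which is no member, was at 274, 251 and 277 CPM in the control libraries and 253, 255 and 260.5 CPM in the Cre libraries (log2 fold change -0.06). Per length, Pparg stood at 90.6 ± 4.74 and Ppard at 7.52 ± 0.336 CPM per kb in controls. Ppargc1b, a coactivator of mitochondrial genes, had a log2 fold change of 0.15 ± 0.11 (SE) (edgeR adjusted p = 0.632).

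Pdk4 showed the lowest p among the members. Pyruvate dehydrogenase kinase 4 phosphorylates and inactivates pyruvate dehydrogenase, which spares glucose when fat is burned, and it is a well-known PPAR target. The gene (ENSMUSG00000019577, chromosome 6, 5483351 to 5496309, minus strand, 11 exon blocks) was at 43.3, 44.6 and 36.1 CPM in the control libraries and 28.0, 22.3 and 28.3 CPM in the Cre libraries. The lowest control, library 3, was 7.86 CPM above the highest Cre library, and Cre library 2 was lowest of all. The log2 fold change was -0.66 ± 0.11 (SE), with a 95% interval of 0.527 to 0.76-fold (edgeR unadjusted p = 0.000447, adjusted p = 0.146, DESeq2 adjusted p = 2.56e-05). In edgeR the gene passed the adjusted threshold with no filter on low counts (adjusted p = 0.00244) and without Cre library 1 (adjusted p = 0.0482), and its adjusted p over all alternatives reached 0.468. In Pdk4, Cre library 1 (28.0 CPM) lay between Cre library 2 (22.3 CPM) and Cre library 3 (28.3 CPM). Among the marker lists, the interstitial and alveolar macrophage sums were higher in the Cre libraries and the airway epithelium sum lower. Without the most abundant gene of each list (Mrc1, Chil3 and Epcam), the groups overlapped in all of these sums. Their part in the Pdk4 difference was not tested.

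The bases upstream of the Pdk4 start (chr6:5496310-5496528, GRCm38, minus strand, RefSeq) are shown because this member had the largest difference; capitals mark the reverse complement of a CCAAT box.
Pdk4: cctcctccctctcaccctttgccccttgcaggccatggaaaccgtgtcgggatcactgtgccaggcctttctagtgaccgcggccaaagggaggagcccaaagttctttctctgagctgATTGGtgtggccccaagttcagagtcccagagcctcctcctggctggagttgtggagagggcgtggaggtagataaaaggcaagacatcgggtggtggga
With 6 CpG dinucleotides in 219 bases and 58.9% G and C, it is poorer in CpG than the Acsl3 stretch.

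The other pyruvate dehydrogenase kinases and the opposing phosphatases come from a list of 24 related regulators, of which 21 were tested. Of those, 1 was higher without overlap (Pdp1) and 2 were lower (Pdk1 and Pdk3), where 8.63% and 9.22% of all tested genes were. Pdk1 was at 65.1, 60.8 and 58.8 CPM in the control libraries and 58.5, 50.8 and 54.8 CPM in the Cre libraries, and all Cre values were below all controls (log2 fold change -0.17 ± 0.07 (SE), edgeR adjusted p = 0.348). Pdk3 was at 32.6, 32.5 and 32.9 CPM in the control libraries and 30.2, 26.0 and 30.6 CPM in the Cre libraries, again with no overlap (log2 fold change -0.18 ± 0.07 (SE), edgeR adjusted p = 0.366). Pdk2 had a log2 fold change of 0.03. The phosphatase Pdp1, which reactivates the enzyme, was at 13.5, 13.5 and 11.4 CPM in the control libraries and 14.1, 16.4 and 17.6 CPM in the Cre libraries, with all Cre values above all controls (log2 fold change 0.32 ± 0.11 (SE), edgeR adjusted p = 0.286). Pdp2 had 0.12. None of the 5 passed the adjusted threshold in edgeR or DESeq2. The ratio of Pdk4 to Pdp1 in CPM, not corrected for length and chosen after these values were seen, was 3.20, 3.30 and 3.16 in the controls and 1.99, 1.36 and 1.603 in the Cre libraries. Pdk4 was lower and Pdp1 higher in every Cre library than in every control. Their ratio therefore had to separate the groups, and it adds nothing to the values of the 2 genes.

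**Figure D4:**
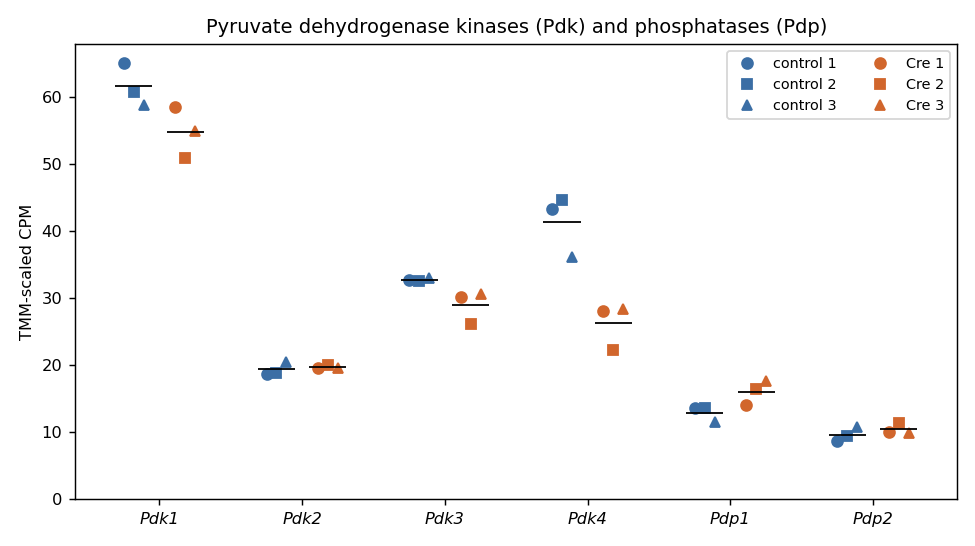
CPM in each library (points; vertical axis, CPM) is shown for the 4 pyruvate dehydrogenase kinases and the 2 phosphatases, control beside Cre, with bars at the group mean. Pdk1, Pdk3 and Pdk4 have all Cre points below all control points, Pdp1 has all above, and Pdk2 and Pdp2 overlap. Among all tested genes, 17.9% had no overlap.

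The rest of the pathway was looked at through 6 lists of 126 related genes, of which 101 were tested. None passed the adjusted threshold in edgeR as fitted to all 6 libraries. Its unadjusted p was under 0.05 for 6 on the higher side and 6 on the lower side (all tested genes, 6.54% and 6.28%). DESeq2 called 3 higher and 1 lower, beside 2.32% and 1.46% of all genes to which it gave an adjusted p. Of 22 tested genes of further mitochondrial oxidation steps, 11 were above and 11 below control, and their log2 median was 0.00. The abundant Acat1, the acetoacetyl-CoA thiolase, and the thioesterase Acot9 had log2 fold changes of -0.13 and -0.08. Slc22a4, a carnitine and ergothioneine carrier, was at 0.581, 0.682 and 0.317 CPM in the control libraries and 0.575, 3.50 and 1.88 CPM in the Cre libraries, low in all controls and in Cre library 1 (log2 fold change 1.91 ± 0.61 (SE), edgeR adjusted p = 0.262, DESeq2 adjusted p = 0.0224). Without Cre library 1 its log2 fold change was 2.34 and it passed in edgeR (adjusted p = 0.0351), and without Cre library 2 the change was 1.21 (adjusted p = 0.53). The thioesterase Acot2 was at 32.5, 30.3 and 25.7 CPM in the control libraries and 26.5, 23.6 and 24.4 CPM in the Cre libraries (log2 fold change -0.25, edgeR adjusted p = 0.329). Acot1 is its near-identical copy, and the summed CPM of both was 84.3, 79.0 and 69.6 in the controls and 78.9, 57.8 and 68.6 in the Cre libraries.

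Known PPAR targets outside the oxidation enzymes lay on both sides of control. Of 14 tested, 5 were above and 9 below control, around a log2 median of -0.09. The fatty acid scavenger receptor Cd36 was at 486, 449.9 and 449.9 CPM in the control libraries and 591, 536 and 667 CPM in the Cre libraries. Every Cre library was above every control (log2 fold change 0.37 ± 0.09 (SE), edgeR unadjusted p = 0.00263, adjusted p = 0.161, DESeq2 adjusted p = 0.00201). Cidec, a lipid droplet protein, was at 451, 435 and 510.0 CPM in the control libraries and 432, 251 and 365 CPM in the Cre libraries (log2 fold change -0.41, edgeR adjusted p = 0.388), with Cre library 1 just below the lowest control. Lipoprotein lipase, Lpl, had a log2 fold change of -0.38 ± 0.15 (SE), the lipid droplet protein Hilpda 0.26 ± 0.10 (SE), and the mitochondrial carrier Ucp2 -0.16 ± 0.07 (SE), with edgeR adjusted p of 0.365, 0.351 and 0.425. The PPAR partner receptor Rxra had a log2 fold change of -0.11.

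**Figure D5:**
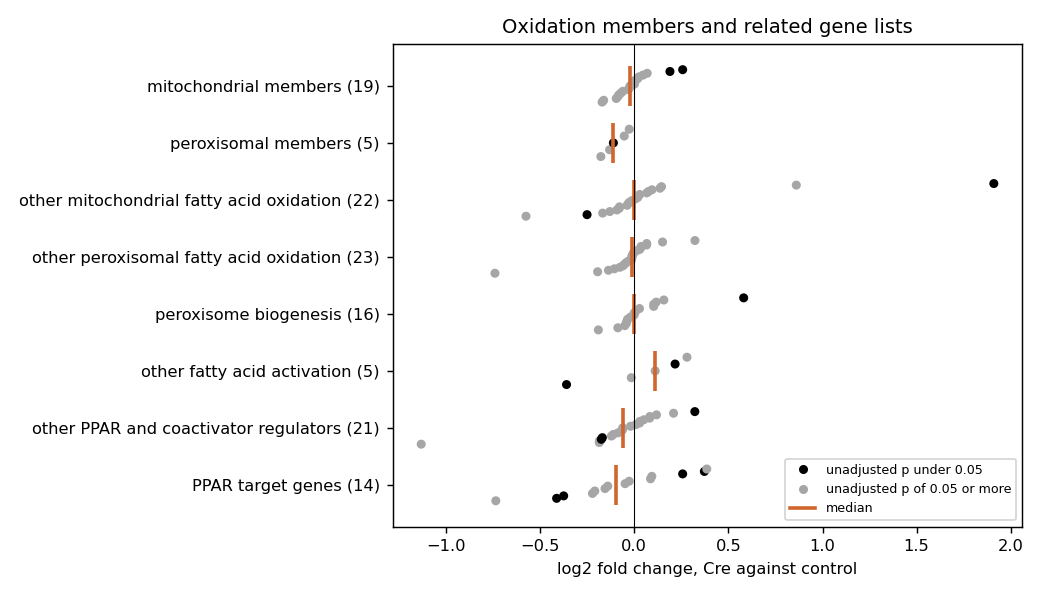
Each point is the log2 fold change (Cre against control) of 1 tested gene in the mitochondrial and peroxisomal groups and the 6 related lists, black where the unadjusted p was under 0.05, with a bar at the median of each list. List medians lie between -0.11 and 0.11, close to 0 beside the spread of single genes.

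Promoter windows of 300 bases (250 before and 50 after each RefSeq start, GRCm38) were on hand for 27 of the 32 members. A PPAR response element is a direct repeat of AGGTCA with 1 base between. The strict repeat AGGTCANAGGTCA, read on both strands, was in no member window and in 0.0396% of all 32851 windows, and AGGNCANAGGNCA in none and 0.381%. The single unit AGGTCA was in the windows of 5 members, Acadm, Acadvl, Cpt1a, Echs1 and Scp2, and in 16.3% of all windows. A CCAAT box was found for 13 members and in 37.4% of all windows, and TATAAA for none and in 13.6%. Member windows held a median of 17 CpG dinucleotides and all windows a median of 7.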

How the data were processed

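Whole-number counts per gene for 6 libraries were deposited by the authors without normalization. Per the submitters' processing notes, the tools include cutadapt 2.5, STAR 2.6.1 and featureCounts 1.6.4 with the build GRCm38; no source used here states the annotation release or strand setting, so reads of overlapping genes on opposite strands cannot be told apart, which touches 9 members. Libraries held 53824475 to 65443314 counts.

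Genes were filtered with filterByExpr, scaled by TMM and tested in edgeR 4.0.16 (quasi-likelihood F test, 3 control against 3 Cre mice, Benjamini-Hochberg over 15147 genes). SE is the log2 fold change over the root of F, and 95% intervals use the t distribution with the residual and prior degrees of freedom. DESeq2 1.42.0 and limma-voom (limma 3.58.1) were alternatives, and the edgeR script was tested on simulated data. The 32 members and the related lists were chosen with earlier results of these data known. Given library by library were members with an unadjusted p under 0.05 or without overlap, the 2 of highest level per length in each role and Hadhb; of each related list, up to 4 with the smallest p under 0.05 and the 2 of highest CPM, apart from genes not reported here. Coordinates and lengths came from GENCODE M21 (GRCm38). Replicate numbers were not treated as pairs in the main fit.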

Additional observations from a re-analysis of the deposited data

How the results depend on the processing

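Genes called higher and lower, 1 and 1 as reported, were 344 and 217 in DESeq2 and 340 and 183 with no filter on low counts, and edgeR's robust fit called 0 lower, while limma-voom called 1 and 1. With 1 library left out they ranged from 1 to 249 higher and from 0 to 52 lower, with 249 and 37 when Cre replicate 1 was left out, 15 and 52 for control replicate 3, 8 and 1 for Cre replicate 2, and 1 and 0 for control replicate 2. Car4 missed the threshold in the robust fit (adjusted p = 0.0719) and without control replicate 2 (0.0549). Members called, 0 as reported, were 2 in DESeq2, 1 with no filter and 0 to 1 with a library left out. Members lower at an unadjusted p under 0.05, 2 as reported, were 1 in DESeq2, RLE scaling, the robust fit, a filter of 5 CPM in 3 libraries and limma-voom, 4 with library size only, and 1 to 6 with a library left out (4 for Cre replicate 1, 6 for control replicate 3, 1 for any other). The share of all tested genes lower at such a p is given for the main fit only (6.28%). The counts of lower members in the other fits therefore cannot be read as a result about the members. Members above control, 14 as reported, ranged from 9 (control replicate 2 left out) to 16, and their median log2 fold change from -0.0487 to 0.00473. Of 101 related genes, 0 as reported, DESeq2 called 3 higher and 1 lower, no filter Cd36 and Acsf3, and the fit without Cre replicate 1 called Slc22a4. In all, 15 alternative fits were run. The causes were not tested.

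Signs turned for genes near 0. With library size only, Acads was at -0.00589, Acaa2 at -0.00453 and Etfb at -0.00377, and with no filter Acads was at -0.00114. With 1 library left out, log2 fold changes ran from -0.045 to 0.0361 for Acads, -0.0487 to 0.0361 for Acaa2, -0.0731 to 0.0328 for Acadvl, -0.0565 to 0.132 for Echs1, -0.0800 to 0.0477 for Decr1, -0.0195 to 0.0649 for Etfa, -0.0455 to 0.0668 for Etfb, -0.0725 to 0.0137 for Ehhadh, -0.0214 to 0.0456 for Ppard, -0.0197 to 0.109 for Acsl4 and -0.0327 to 0.0891 for Pex2.

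Deviations of same-numbered mice correlated at -0.01, -0.16 and 0.07, and those of differently numbered mice at -0.22 to 0.24. These values cannot show whether the numbers pair the mice, and the labels give the numbers no shared meaning. With the replicate block, 8 genes were called higher and 2 lower, and 1 member rather than 2 was lower at an unadjusted p under 0.05. With 3 mice per group, differences whose printed interval includes no change could not be told from 0. The intervals take no account of the number of genes tested.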
